A study of Mus musculus with 2 samples.

Results

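Lactotrope-type cells with a lower content of Prl transcripts were defined as barcodes with at least 250 genes, at most 20% mitochondrial UMIs, Prl at 3% to 15% of all UMIs, Gh under 5%, Pomc and Cga each under 1% and fewer than 10 Tshb UMIs. They were thus chosen by measured values, the Prl share foremost. They numbered 544 of 13663 barcodes (3.98%), with 246 in library 1 and 298 in library 2. They were set against the high-Prl cells, which met the same limits on other genes but held Prl above 15% of UMIs and numbered 1185 and 1487. The cells came from pituitary glands of male C57BL/6 mice aged 7 weeks, pooled as 3 glands for each of 2 libraries of the 10x Genomics droplet assay, and no animal was treated or mutant. Both groups therefore share strain, age, sex and pool, and single animals within a pool were not told apart. Cells of both groups also went through the same 4 h digestion, with viability given as 71 to 82%. UMIs (unique molecular identifiers) count captured transcripts. P-values rest on how the differences between cell groups varied between these 2 pools, and not on single animals. The spread was estimated over 4 cell groups and drawn in large part from other genes.

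Lactotropes are the prolactin-secreting endocrine cells of the anterior pituitary, specified by the transcription factor POU1F1. Dopamine from the hypothalamus holds their secretion down, and oestrogen acting through its receptor ESR1 raises transcription of Prl. Prolactin is folded in the endoplasmic reticulum, passes through the Golgi and is stored in dense granules with granins such as chromogranin B until exocytosis.

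The lower-Prl cells made up 3.78% of the barcodes that passed the quality limits in library 1 (exact binomial 95% interval 3.33 to 4.27%, counting error only) and 4.22% in library 2 (3.76 to 4.72%). Of lower-Prl and high-Prl cells together, they were 17.2% and 16.7%. The median Prl content was 544 and 522.5 UMIs in lower-Prl cells, against 2986 and 3576 UMIs in high-Prl cells. This gap comes from the rule and is a description. The rest of the transcriptome was of similar depth, with a median of 5060.5 and 5443 UMIs outside 7 hormone genes (Prl, Gh, Pomc, Cga, Tshb, Lhb and Fshb) in lower-Prl cells and 5646 and 5732 in high-Prl cells. The histogram of the Prl share ran across the 15% limit without a gap.

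**Figure D1:**
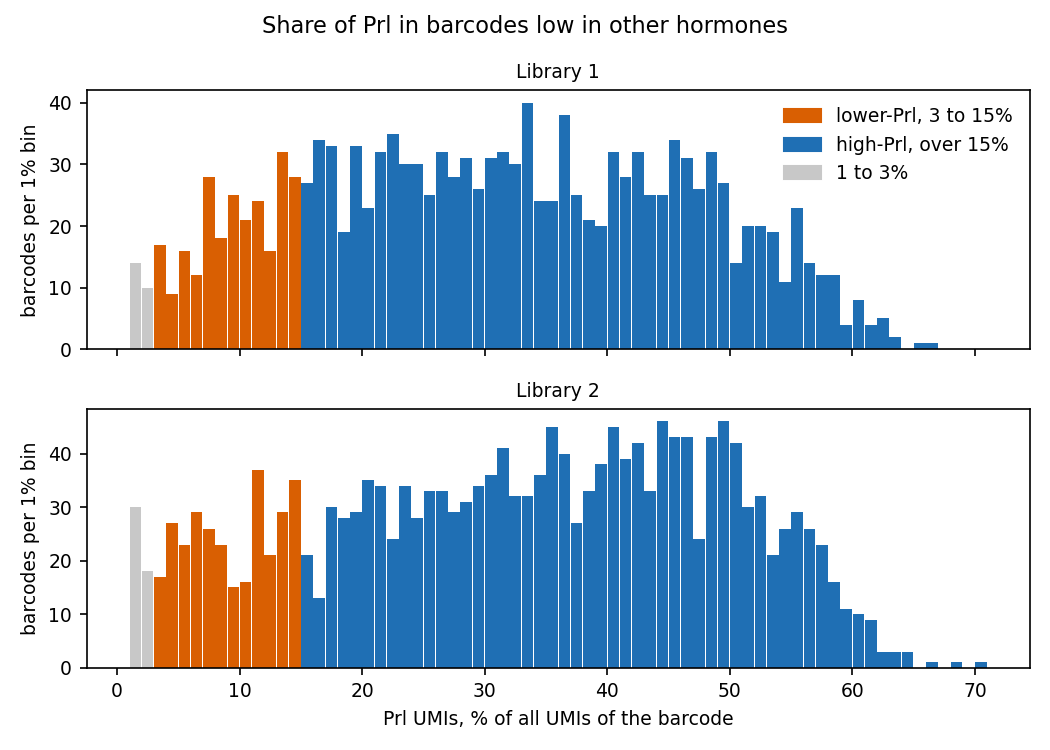
Number of barcodes in each 1% bin of the Prl share of all UMIs, from 1% upward, in library 1 (upper panel) and library 2 (lower panel), for barcodes within the limits on Gh, Pomc, Cga and Tshb. Orange bars are lower-Prl cells, blue bars high-Prl cells and grey bars cells at 1 to 3%; no gap separates orange from blue at 15%.

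Values of the cells next to the limits are given as a description. Just inside the upper limit, at 14 to 15% Prl, 28 and 35 cells had Chgb at 5958 and 5795 counts per 1000000 UMIs outside the hormone genes (CPM). Just outside it, 27 and 21 cells had 6433 and 5428 CPM. At the lower limit, 17 and 17 cells at 3 to under 4% Prl had Chgb at 3470 and 5311 CPM, and 10 and 18 cells at 2 to under 3% had 3380 and 3862 CPM. These last cells were shallower, with medians of 4112 and 4525 UMIs outside the hormone genes, against 5666 and 5675 just inside.

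The label of lactotrope was checked with the other markers of these cells. After each cell was thinned to 1000 UMIs outside the hormone genes, Agtr1a, the angiotensin II receptor, had a UMI in 12.2% and 13.4% of lower-Prl cells and in 13.7% and 13.6% of high-Prl cells. In cells low in all hormones, whose median depths of 4736 and 4413 UMIs were close to those above, the share was 1.14% and 1.56%. Unthinned, the Agtr1a shares were 45.5% and 46.0% in lower-Prl cells, 51.9% and 57.8% in high-Prl cells and 6.85% and 5.03% in cells low in all hormones. Pou1f1 had a UMI in 34.1% and 35.6% of thinned lower-Prl cells, 41.1% and 38.7% of high-Prl cells and 4.11% and 2.43% of cells low in all hormones. In somatotropes, the growth hormone cells, which also depend on POU1F1, the Pou1f1 share was 27.0% and 28%. Esr1 had a UMI in 9.35% and 8.72% of thinned lower-Prl cells, 9.70% and 10.6% of high-Prl cells, 1.60% and 0.694% of cells low in all hormones and 5.49% and 4.54% of somatotropes. Agtr1a had a UMI in 0.177% and 0.172% of thinned somatotropes, so of these 3 genes it was the one that set lactotrope-type cells apart from somatotropes most. The 5 markers of somatotropes other than Gh summed to only 31.4 and 23.5 CPM in lower-Prl cells, 38.1 and 33.0 CPM in high-Prl cells and 831 and 761 CPM in somatotropes. The dopamine receptor gene Drd2 was of no use as a marker, with 0 UMIs in the 246 and 298 lower-Prl cells (by the limit of 3 counts of the total, this allows up to 1.22% and 1.01% of cells with a UMI) and 3 and 4 UMIs in high-Prl cells.

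On the authors' t-SNE projection, 88.2% and 91.6% of lower-Prl cells had mostly lactotrope-type cells among their 15 nearest neighbours. On average 43.0% and 43.2% of those neighbours were themselves lower-Prl cells, while lower-Prl cells were 8.56% and 6.44% of the neighbours of high-Prl cells. The projection used all genes, Prl among them, so this is a description.

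**Figure D2:**
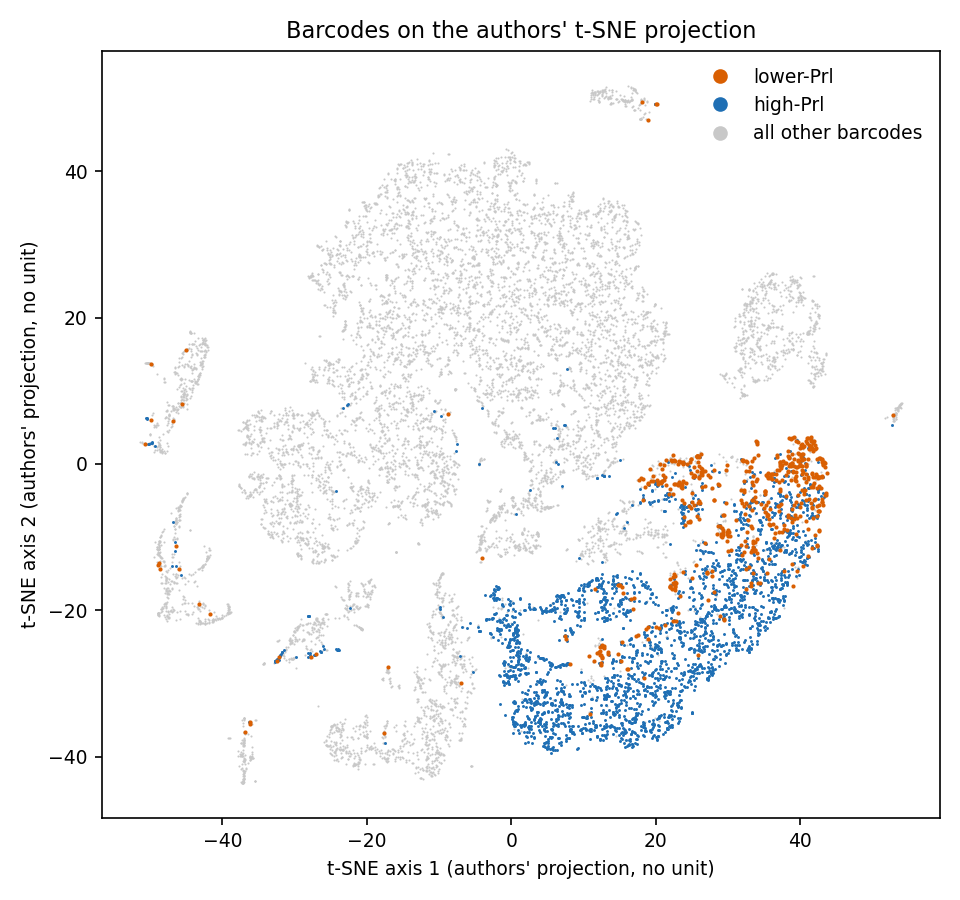
Position of each barcode on the 2 axes of the authors' t-SNE projection, which have no unit, with both libraries together. Lower-Prl cells (orange) lie mainly along the upper edge of the region of high-Prl cells (blue), and some sit among other barcodes (grey).

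Some lower-Prl barcodes also carried transcripts of other cell types, and these values stand beside the results they touch. The 8 endothelial markers summed to 244 and 185 CPM in lower-Prl cells and 73.4 and 50.8 CPM in high-Prl cells, against 3512 and 3464 CPM in cells low in all hormones, and all 8 tested markers passed the test as higher. The 10 macrophage or leukocyte markers summed to 213 and 142 CPM in lower-Prl cells and 26.3 and 31.6 CPM in high-Prl cells, and 7 of 8 tested passed as higher, with 1 of the 10 at 0 in lower-Prl cells. Erythrocyte markers summed to 4450 and 2738 CPM in lower-Prl cells and 1200 and 1158 CPM in high-Prl cells, with none of 5 called. Marker barcodes had at least 2 UMIs of the markers of any of 6 types. These were stem, endothelial, fibroblast or pericyte, macrophage or leukocyte, pituicyte and erythrocyte. Markers of other hormone cell types were not used. Marker barcodes were 26.4% and 21.5% of lower-Prl cells and 28.5% and 32.5% of high-Prl cells. Col1a2, one of the fibroblast or pericyte markers, was itself lower in lower-Prl cells than in high-Prl cells (log2 fold change -0.52, adjusted p = 0.00283), and with Col1a2 not counted, a choice made after seeing the data, the shares were 13.4% and 11.1% of lower-Prl cells and 10.0% and 12.5% of high-Prl cells. Results without marker barcodes refer to the full marker set, Col1a2 included, unless said otherwise. A total of 54 barcode sequences occurred in both libraries, and 3 lower-Prl barcodes had such a twin.

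Across 12498 genes tested with edgeR's quasi-likelihood test on UMI counts summed per cell group and library, 577 genes (4.62%) differed between lower-Prl and high-Prl cells at an adjusted p below 0.05. Of these, 336 were higher (2.69%) and 241 lower (1.93%) in lower-Prl cells. The median log2 fold change of all genes was 0.01. Without marker barcodes, 147 were higher and 124 lower, and with Col1a2 not counted as a marker 211 were higher and 151 lower. With high-Prl cells limited to Prl at 15 to 30%, 65 were higher and 30 lower. Scaling by totals that include the hormone genes, without TMM factors (edgeR's correction for composition), shifted the median gene by 0.58, so all changes below are relative to the RNA outside the hormone genes.

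Granule genes held some of the largest differences. Chgb, which encodes chromogranin B (chr2:132781278-132795079, mm10), stood at 5137 and 5059 CPM in lower-Prl cells and 9708 and 10152 CPM in high-Prl cells. The groups did not overlap, and the log2 fold change was -0.96 ± 0.135 (SE). With edgeR's quasi-likelihood test the adjusted p was 0.0706, so Chgb was not called, and the reason was not tested. It was called with DESeq2 (adjusted p = 3.74e-18) and without library in the fit (adjusted p = 0.024). Over all alternatives with a test its log2 fold change lay between -1.12 and -0.39 and its adjusted p between 1.88e-232, with only the compared columns, and 0.472, against high-Prl cells at 15 to 30% Prl. Scg2, which encodes the granin secretogranin II (chr1:79434669-79440120, mm10), fell to 1111 and 1171 CPM in lower-Prl cells, against 1843 and 1937 CPM in high-Prl cells, a log2 fold change of -0.73 ± 0.047 (adjusted p = 1.96e-10). Chga, the related chromogranin A, was at 346 and 315 CPM in lower-Prl cells and 329 and 301 CPM in high-Prl cells (adjusted p = 0.668).

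Pcsk2 and Cpe, which encode enzymes that process prohormones, also fell. Pcsk2, which encodes prohormone convertase 2 (chr2:143546156-143816285, mm10), was at 16.6 and 25.8 CPM in lower-Prl cells and 51.9 and 52.4 CPM in high-Prl cells, a log2 fold change of -1.27 ± 0.174 (adjusted p = 3.03e-05). An antisense transcript overlaps Pcsk2, and reads of the pair may not be fully separable. Cpe, the carboxypeptidase that trims prohormones, fell by 0.30 on the log2 scale, and Scg5, the chaperone of convertase 2, fell by 0.25, though both were higher in lower-Prl cells when totals included the hormone genes and no TMM factors were used. Pcsk1n, which encodes the convertase 1 inhibitor proSAAS, went the other way, with 6933 and 6761 CPM in lower-Prl cells and 5206 and 4784 CPM in high-Prl cells, a log2 fold change of 0.46 ± 0.038 (adjusted p = 1.76e-08). The Rab GTPase gene Rab3b rose by 0.78 and Sytl4, a granule-docking protein gene, by 0.93. Somatotropes had Rab3b at 153 and 145 CPM, Sytl4 at 210 and 193 CPM and Pcsk1n at 3251 and 2895 CPM. The Sytl4 call rested on 25 and 29 UMIs in lower-Prl cells; it was lost against high-Prl cells at 15 to 30% Prl (0.25, adjusted p = 0.847), and the direction turned with cells thinned to 1000 UMIs (-2.55, adjusted p = 0.352). Of 40 tested genes of granules and exocytosis among 42 listed, 3 were higher and 5 lower, with a median of -0.11.

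Lactotrope genes did not move together. Pou1f1 was at 499 and 495 CPM in lower-Prl cells and 555 and 503 CPM in high-Prl cells, a log2 fold change of -0.09 (adjusted p = 0.561). Esr1 was at 107 and 82.9 CPM in lower-Prl cells and 96.0 and 97.8 CPM in high-Prl cells, and these values overlapped (adjusted p = 0.895). Agtr1a fell to 120 and 133 CPM in lower-Prl cells, against 159 and 177 CPM in high-Prl cells, a log2 fold change of -0.41 ± 0.096 (adjusted p = 0.0102); the call was lost without marker barcodes (adjusted p = 0.362). The direction of Pou1f1, Esr1 and Agtr1a turned positive when totals included the hormone genes and no TMM factors were used.

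Gal encodes galanin, a neuropeptide made by lactotropes that oestrogen induces in the rat pituitary (chr19:3409915-3414544, mm10). It reached 156 and 118 CPM in lower-Prl cells, against 34.2 and 36.7 CPM in high-Prl cells, a log2 fold change of 1.93 ± 0.161 (adjusted p = 4.23e-06). It had a UMI in 27.6% and 25.5% of lower-Prl cells, 11.6% and 10.4% of high-Prl cells and 6.39% and 3.65% of cells low in all hormones. Ramp1, which encodes a receptor activity modifying protein that partners the calcitonin receptor-like receptor, was at 288 and 297 CPM in lower-Prl cells and 183 and 181 CPM in high-Prl cells (log2 fold change 0.69, adjusted p = 3.26e-06). Asb4, which encodes an ankyrin repeat and SOCS box protein, fell to 136 and 150 CPM in lower-Prl cells, against 257 and 273 CPM in high-Prl cells (log2 fold change -0.89, adjusted p = 3.97e-08). Of 15 tested lactotrope genes among 20 listed, 3 were higher (Gal, Ramp1 and the repressor gene Zbtb20, at 0.24) and 2 lower (Asb4 and Agtr1a). Among 24 tested pituitary transcription factors of 30 listed, Etv1, of the ETS family, had the largest called change, at 7.11 and 9.42 CPM in lower-Prl cells and 24.1 and 27.7 CPM in high-Prl cells (log2 fold change -1.65, adjusted p = 0.000307). Etv1 had only 9 and 15 UMIs in lower-Prl cells. Its call was lost against high-Prl cells at 15 to 30% Prl (-1.05, adjusted p = 0.176).

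**Figure D3:**
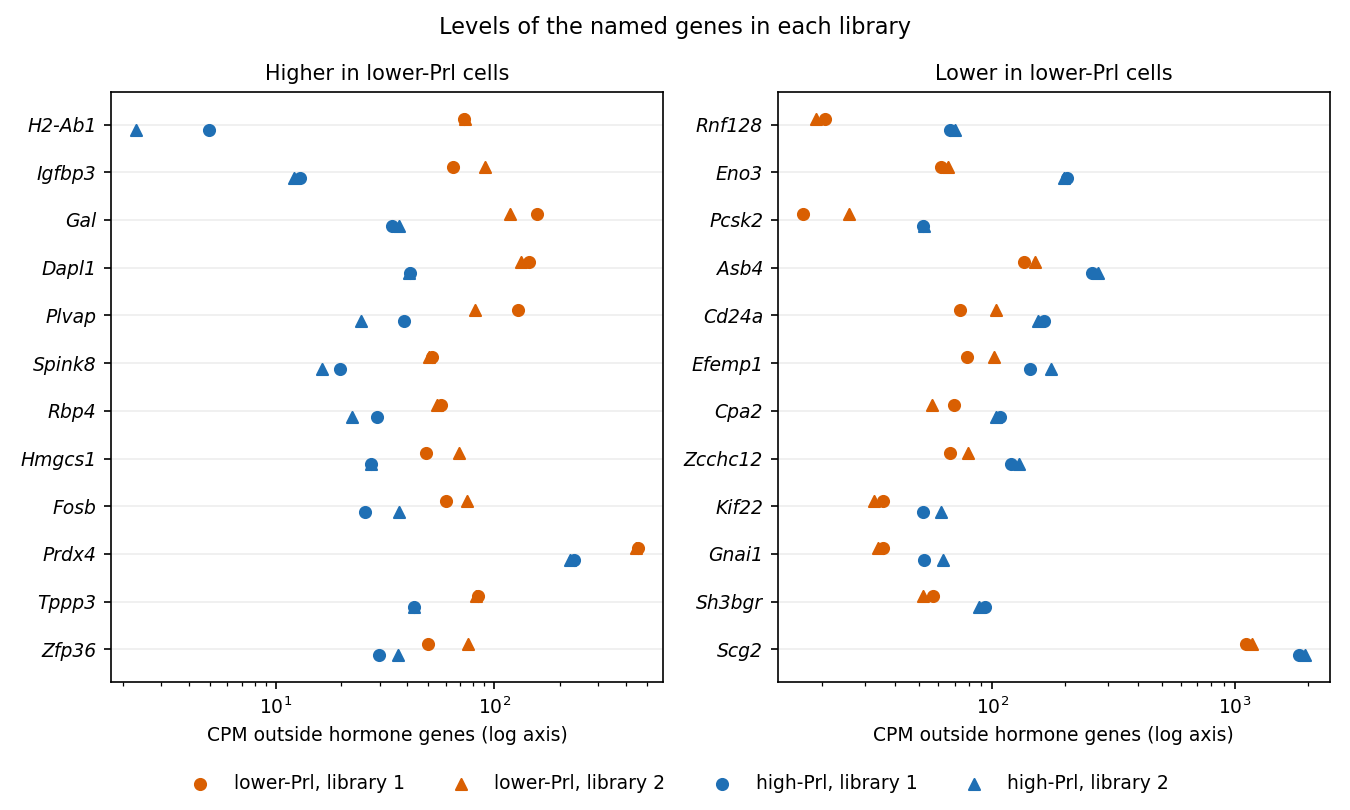
Level of the 12 called genes with the largest positive (left) and negative (right) log2 fold changes, in CPM outside the hormone genes on a log axis, for lower-Prl (orange) and high-Prl cells (blue) in library 1 (circles) and library 2 (triangles). In each gene shown both orange points lie on the same side of both blue points.

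Of the 12 genes with the largest called increases among those at 50 CPM or more, several rested on few cells. H2-Ab1, an MHC class II gene of antigen-presenting cells, had 97.8% and 93.2% of its lower-Prl UMIs in 5 cells per library. For Igfbp3, an insulin-like growth factor binding protein gene, the share was 97.6% and 98.6%, and for Plvap, a gene of fenestrated endothelium, 91.4% and 93.1%. None of these 3 stayed called without marker barcodes (adjusted p = 0.916, 0.623 and 0.611), and Zfp36, an mRNA decay factor gene, also lost its call (adjusted p = 0.318). Plvap is itself one of the 8 endothelial markers, and barcodes with at least 2 of its UMIs were left out by that rule. Its lost call is therefore no test. The other increases were spread over more cells. Dapl1 was at 145 and 133 CPM in lower-Prl cells and 41.3 and 40.7 CPM in high-Prl cells (log2 fold change 1.75, adjusted p = 1.17e-10), with a UMI in 29.3% and 29.9% of lower-Prl and 13.7% and 13.4% of high-Prl cells. Spink8, a Kazal-type peptidase inhibitor gene, rose by 1.52, and Rbp4, the retinol binding protein gene, by 1.13. Somatotropes held more Dapl1 and Rbp4 than lower-Prl cells, with 628 and 721 CPM of Dapl1 and 119 and 135 CPM of Rbp4. Spink8 was at only 3.00 and 1.60 CPM in somatotropes.

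Prdx4, which encodes the peroxiredoxin of the endoplasmic reticulum (chrX:155323918-155340754, mm10), was at 455 and 447 CPM in lower-Prl cells and 232 and 222 CPM in high-Prl cells, a log2 fold change of 0.99 ± 0.065 (adjusted p = 2.64e-10). Hmgcs1, of sterol synthesis, was at 49.0 and 69.1 CPM in lower-Prl cells and 27.4 and 27.3 CPM in high-Prl cells (log2 fold change 1.13, adjusted p = 1.45e-05). Chosen after its values were seen, Msmo1 of the same route was at 113 and 143 CPM in lower-Prl cells and 70.9 and 83.3 CPM in high-Prl cells. In somatotropes Prdx4 was at 165 and 146 CPM, Hmgcs1 at 80.0 and 97.9 CPM and Msmo1 at 138 and 175 CPM.

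The largest called decrease at 50 CPM or more was that of Rnf128, an E3 ubiquitin ligase gene (chrX:139563316-139673145, mm10), with 20.5 and 18.8 CPM in lower-Prl cells and 67.1 and 70.2 CPM in high-Prl cells (log2 fold change -1.82 ± 0.167, adjusted p = 6.99e-08). Eno3, the beta enolase gene of glycolysis, fell to 61.6 and 66.0 CPM in lower-Prl cells, against 203 and 198 CPM in high-Prl cells (log2 fold change -1.66, adjusted p = 2.12e-05). Cd24a, a surface glycoprotein gene, fell by 0.83 and Efemp1, an extracellular matrix gene, by 0.81. Gnai1, an inhibitory G protein subunit gene, fell by 0.74. Without marker barcodes 11 of the 12 largest decreases stayed called, and Gnai1 did not (-0.67, adjusted p = 0.052).

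Genes of protein folding in the endoplasmic reticulum fell in part. Of 30 tested, 6 were lower (Derl3, Creld2, Dnajc3, Dnajb9, Xbp1 and Dnajb11) and 1 was higher (Fkbp2), with a median of -0.07. Xbp1, a transcription factor gene of the unfolded protein response, fell to 198 and 212 CPM in lower-Prl cells, against 258 and 276 CPM in high-Prl cells, a log2 fold change of -0.38 ± 0.071 (adjusted p = 0.00124) that turned positive with totals that include the hormone genes and no TMM factors. Hspa5, the main chaperone of the compartment, was at 1247 and 1363 CPM in lower-Prl cells and 1185 and 1336 CPM in high-Prl cells, and these values overlapped (adjusted p = 0.663). Fkbp2, a prolyl isomerase gene, rose to 965 and 923 CPM in lower-Prl cells, against 704 and 718 CPM in high-Prl cells (log2 fold change 0.41, adjusted p = 1.81e-05). Without marker barcodes, 3 were lower (Dnajc3, Dnajb9 and Xbp1) and 1 higher, and against high-Prl cells at 15 to 30% Prl, 0 were lower and 1 higher.

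The endoplasmic reticulum stress element, to which factors of the unfolded protein response bind, was searched as CCAAT and CCACG with 9 free bases between them, on both strands of the 300-base promoters (250 bases before to 50 after the start site) of the RefSeq tables, build GRCm38.p6. It was in 39 of 32851 promoters (0.119%) and in 9 of the 25 folding genes with a promoter. Of these 9, Creld2, Derl3 and Dnajc3 were lower, and the other 6, Hspa5 among them, were not called. The 100 bases around the match are shown for the 3 that fell, on the strand of the gene, with the match in capitals; in Creld2 and Derl3 it reads on the opposite strand.
Creld2, chr15:88819480-88819579, plus strand: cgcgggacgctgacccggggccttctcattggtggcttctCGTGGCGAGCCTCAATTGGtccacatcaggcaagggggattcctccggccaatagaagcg
Derl3, chr10:75893202-75893301, plus strand: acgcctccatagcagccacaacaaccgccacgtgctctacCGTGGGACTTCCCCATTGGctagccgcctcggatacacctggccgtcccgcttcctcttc
Dnajc3, chr14:118937787-118937886, plus strand: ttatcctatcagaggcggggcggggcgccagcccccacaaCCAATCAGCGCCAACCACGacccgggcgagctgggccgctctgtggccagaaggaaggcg
Creld2, which encodes a chaperone-like disulfide isomerase, was at 82.2 and 96.1 CPM in lower-Prl cells and 106 and 135 CPM in high-Prl cells. Derl3, of the degradation route, was at 10.3 and 6.28 CPM in lower-Prl cells and 15.5 and 20.9 CPM in high-Prl cells. Dnajc3, a co-chaperone and kinase inhibitor gene, was at 199 and 215 CPM in lower-Prl cells and 268 and 284 CPM in high-Prl cells. A match is a description and not a shown binding site.

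Entry into and transport along the secretory pathway held the longest run of decreases, with 13 of 44 tested genes lower and 1 higher and a median of -0.17. Tmed9, a cargo receptor gene, fell to 266 and 278 CPM in lower-Prl cells, against 351 and 386 CPM in high-Prl cells (log2 fold change -0.44, adjusted p = 5.7e-05). Tram1, of the translocation channel, fell by 0.40 and Lman1, a cargo receptor gene of the route to the Golgi, by 0.33; Tmed9, Tram1 and Lman1 were all positive with totals that include the hormone genes and no TMM factors. Ssr4, of the translocon-associated complex, was the gene that rose, by 0.37. Without marker barcodes, 8 were lower and 3 higher, and against high-Prl cells at 15 to 30% Prl, 0 were lower and 1 higher.

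Genes of the integrated stress response, the programme that follows phosphorylation of eIF2 alpha, were higher in 6 and lower in 0 of 19 tested, with a median of 0.28. Ddit3, which encodes the transcription factor CHOP, was at 160 and 188 CPM in lower-Prl cells and 95.05 and 143 CPM in high-Prl cells, a log2 fold change of 0.55 ± 0.094 (adjusted p = 0.00059). Trib3, a pseudokinase gene induced by CHOP, rose by 0.91, Ppp1r15a, the phosphatase subunit that reverses the response, by 0.47 and Atf5 by 0.42. Atf4, the transcription factor at the centre of the response, was at 204 and 219 CPM in lower-Prl cells and 174 and 186 CPM in high-Prl cells but was not called (adjusted p = 0.0785). Without library in the fit 2 of the 19 were called, and Ddit3 was not among them (adjusted p = 0.417). With DESeq2 1 of the 19 was called, namely Ddit3 (adjusted p = 0.00456). Of the 6, Ddit3 was the one still called without marker barcodes (adjusted p = 0.00223) and against high-Prl cells at 15 to 30% Prl (adjusted p = 0.00564); with Col1a2 not counted as a marker 6 of the 19 were called.

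Immediate early genes, which are induced within minutes of a stimulus, were higher in 6 and lower in 1 of 25 tested, with a median of 0.25. Both groups shared the 4 h digestion, and its part in these levels was not tested. Fosb, a subunit of the AP-1 factor, was at 60.1 and 74.8 CPM in lower-Prl cells and 25.7 and 36.7 CPM in high-Prl cells (log2 fold change 1.10, adjusted p = 4.82e-06), with 53.9% and 42.0% of its lower-Prl UMIs in 5 cells per library. Fos itself was at 642 and 1214 CPM in lower-Prl cells and 793 and 1067 CPM in high-Prl cells, and these values overlapped (adjusted p = 0.944). Without marker barcodes 3 of these genes were higher and 1 lower, and without library in the fit none was called.

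Of 20 cytosolic heat shock genes 3 were higher and 0 lower, with a median of 0.02. Dnajb1, a co-chaperone gene, was at 990 and 1292 CPM in lower-Prl cells and 743 and 1051 CPM in high-Prl cells (log2 fold change 0.35, adjusted p = 6.11e-05). It was higher in lower-Prl cells within each library, but the 4 values overlapped, and the call was lost without library in the fit (adjusted p = 0.67, with 0 of the 20 genes called) and against high-Prl cells at 15 to 30% Prl (adjusted p = 0.808). Hspa1a was at 2914 and 3579 CPM in lower-Prl cells and 3365 and 3522 CPM in high-Prl cells (adjusted p = 0.879), and its near-identical copy Hspa1b may share reads with it. Of 32 genes of oxidative stress, hypoxia and p53, 3 were higher, namely Prdx4 and the metallothionein genes Mt1 and Mt2, and 0 were lower, with a median of 0.05. Without marker barcodes Mt1 (0.07, adjusted p = 0.935) and Mt2 (-0.25, adjusted p = 0.573) lost their calls. Mitochondrial UMIs were a median 4.11% and 3.67% of all UMIs in lower-Prl cells and 2.73% and 2.47% in high-Prl cells, but 4.46% and 4.09% of UMIs outside the hormone genes in lower-Prl cells and 4.39% and 4.20% in high-Prl cells. None of 13 mitochondrial genes was called (log2 fold changes of -0.42 to 0.17).

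Of 20 cell cycle genes 5 were lower and 0 higher, with a median of -0.62; without marker barcodes 1, Cdk1, stayed lower. Cdk1, the mitotic kinase gene, was at 7.90 and 5.03 CPM in lower-Prl cells and 15.5 and 16.4 CPM in high-Prl cells (log2 fold change -1.34, adjusted p = 0.00892). This rested on few cells, with 10 and 8 UMIs in 6 and 3 lower-Prl cells. In high-Prl cells 5 cells per library held 56.0% and 49.3% of the Cdk1 UMIs. Barcodes with at least 2 UMIs of 5 cycling markers were 1.22% and 1.01% of lower-Prl cells and 1.86% and 1.41% of high-Prl cells. Among 31 ion channel genes 2 were higher and 0 lower, with a median of 0.17. Kcnk2, a two-pore potassium channel gene, was at 90.1 and 92.3 CPM in lower-Prl cells and 58.0 and 53.7 CPM in high-Prl cells (log2 fold change 0.72, adjusted p = 5.7e-05). Its level was higher still in somatotropes, at 248 and 224 CPM. Of 25 receptor genes 2 were higher (Ramp1 and Ramp2) and 1 lower (Agtr1a), with a median of 0.33. All UMIs of Ramp2 in lower-Prl cells lay in 5 cells per library, and without marker barcodes the gene was too low to test and only Ramp1 stayed called. Of 6 nuclear RNAs 3 were higher (Meg3, Neat1 and Snhg11) and 1 lower (Malat1), with a median of 0.29, and without marker barcodes only Meg3 stayed called. Meg3, a nuclear long non-coding RNA, was at 17266 and 15597 CPM in lower-Prl cells and 12961 and 12224 CPM in high-Prl cells (log2 fold change 0.38, adjusted p = 3.97e-08).

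**Figure D4:**
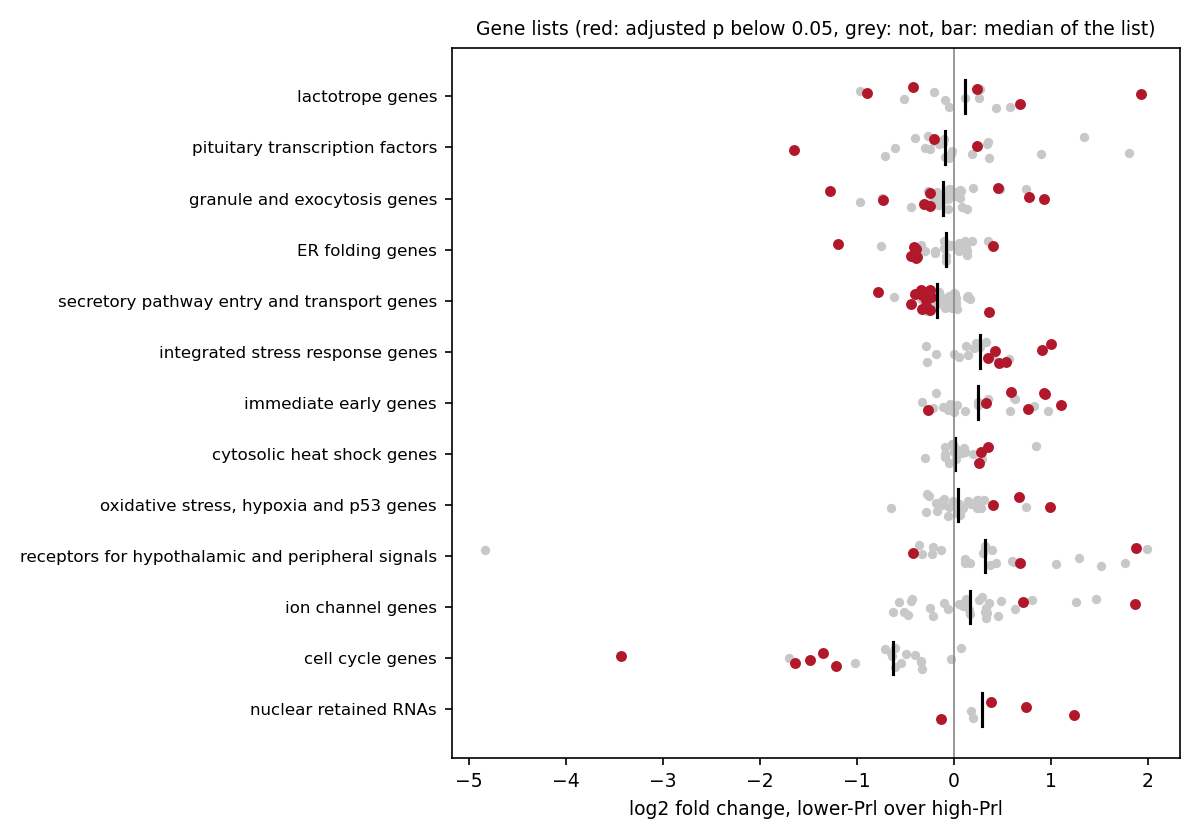
Log2 fold change of lower-Prl over high-Prl cells for each tested gene of 13 lists. Red points passed an adjusted p below 0.05, grey points did not, black bars are list medians; 13 of 44 secretory pathway entry and transport genes are red on the negative side and 6 of 19 integrated stress response genes red on the positive side.

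Levels were then followed over 6 bins of the Prl share, whose median depth outside the hormone genes was between 5047 and 5836 UMIs. Bins of one library are not replicates, so no test was made. Chgb rose at every step in both libraries, with 4467 and 4737 CPM at 3 to 7% Prl, 6822 and 6620 CPM at 15 to 25% and 12830 and 12630 CPM above 45%. Etv1 had 3.46 and 3.76 CPM in the lowest bin and 42.3 and 37.7 CPM in the highest. Its levels up to 15% Prl rested on only 9 and 15 UMIs in all lower-Prl cells. Eno3, Pcsk2, Asb4 and Scg2 also rose at every step in both libraries, so these genes changed within the high-Prl range as well as across the 15% limit.

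Prdx4 fell with the Prl share at every step in both libraries, with 488 and 484 CPM at 3 to 7%, 324 and 335 CPM at 15 to 25% and 140 and 124 CPM above 45%. Ramp1 and Fkbp2 did likewise. Gal had 149 and 162 CPM in the lowest bin and 7.85 and 9.43 CPM in the highest, with 1 step out of order in library 1. Pou1f1 showed no order, with all values between 405 and 563 CPM. Of the 12 genes with the largest decreases in lower-Prl cells, 6 rose with the Prl share at every step in both libraries, and of the 12 with the largest increases 1 fell at every step in both. Both sets were picked from these same cells by their difference across the 15% limit, so the choice favoured such an order. The share of all tested genes with such an order was not taken, and these counts are a description.

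**Figure D5:**
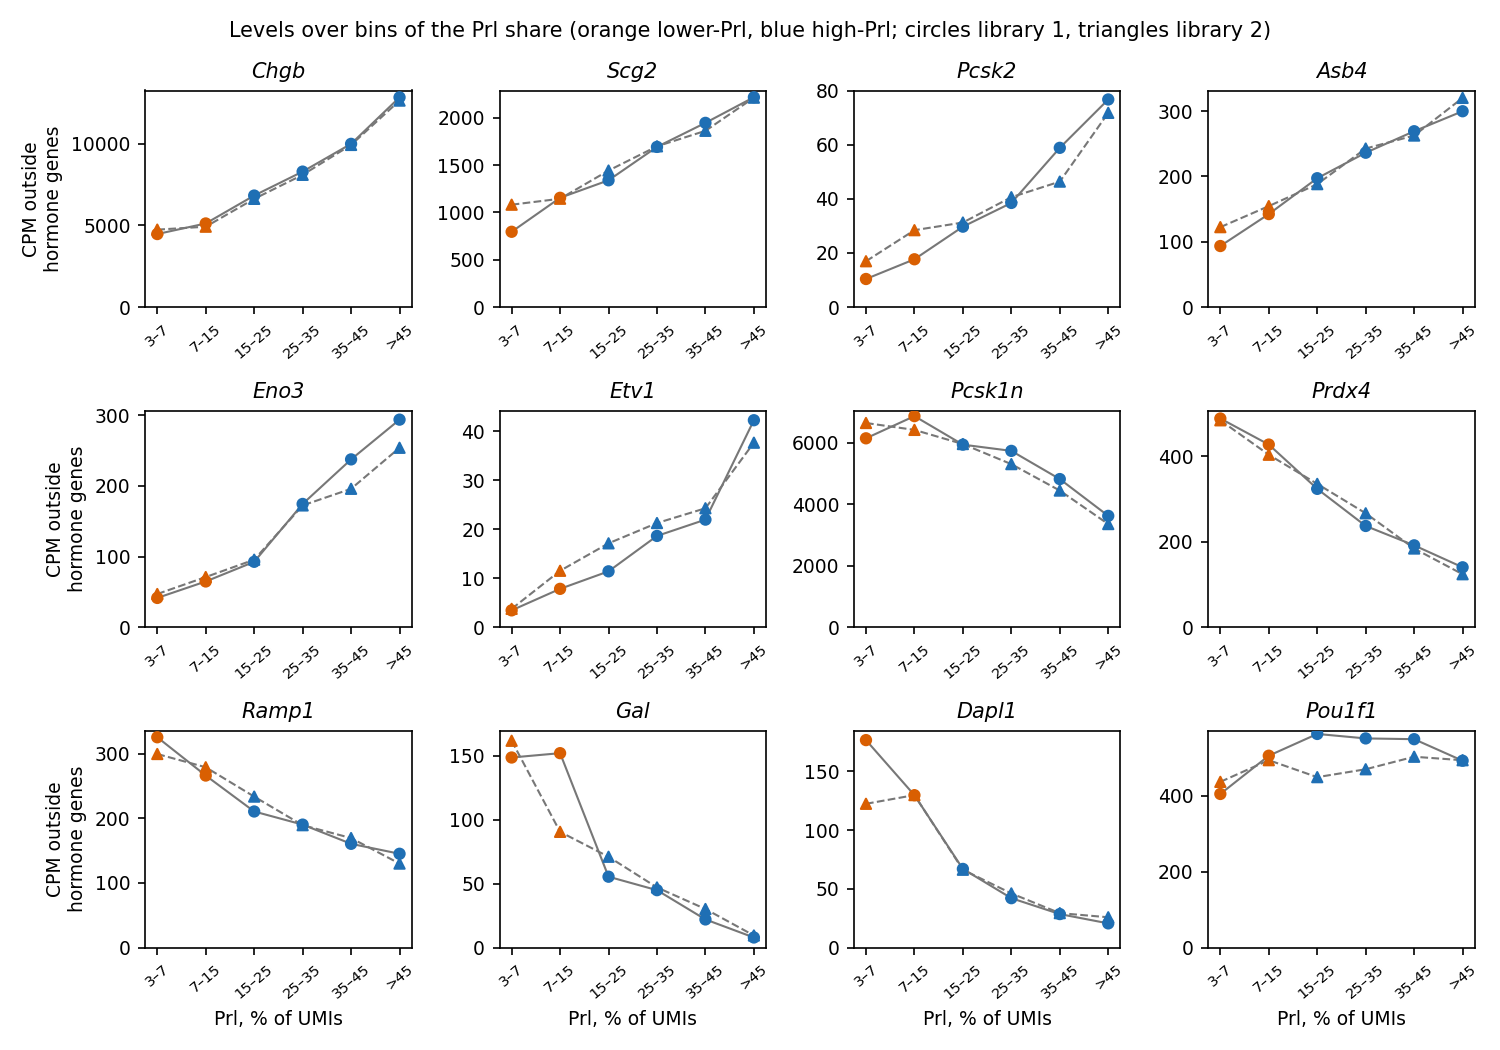
CPM outside the hormone genes of 12 genes over 6 bins of the Prl share (horizontal axis, % of all UMIs), for library 1 (circles, solid line) and library 2 (triangles, dashed line), with lower-Prl bins in orange and high-Prl bins in blue. Chgb, Scg2, Pcsk2, Asb4, Eno3 and Etv1 rise at every step, Prdx4 and Ramp1 fall at every step and Pou1f1 has no order. Etv1 had only 9 and 15 UMIs in all lower-Prl cells.

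Within the lower-Prl cells, 54 and 96 cells at 3 to 7% Prl were compared with 192 and 202 cells at 7 to 15%. Of 10008 genes 6 were higher (0.06% called in either direction), namely Mt2, Mt1, Plat, Jund, Nfia and Actg1, and 0 were lower with edgeR's quasi-likelihood test, while 671 genes had an unadjusted p below 0.05. With DESeq2 23 were higher and 0 lower. Mt2, a metal-binding protein gene, was at 344 and 541 CPM at 3 to 7% Prl and 91.5 and 117 CPM at 7 to 15% (log2 fold change 2.11, adjusted p = 5.74e-12), with 49.2% and 65.1% of its UMIs in lower-Prl cells held by 5 cells per library. Plat, the tissue plasminogen activator gene, was at 56.2 and 48.8 CPM at 3 to 7% and at 0 in both libraries at 7 to 15%; its 16 and 25 UMIs came from 4 and 5 cells. Marker barcodes were 24.1% and 25% of cells at 3 to 7% and 27.1% and 19.8% of cells at 7 to 15%. With Col1a2 not counted as a marker the shares were 20.4% and 14.6% at 3 to 7% and 11.5% and 9.41% at 7 to 15%. None of the 6 genes stayed called under either definition. Scg2 was at 808 and 1123 CPM at 3 to 7% and 1182 and 1188 CPM at 7 to 15% (adjusted p = 0.333), and Chgb was at 4533 and 4914 CPM at 3 to 7% and 5236 and 5102 CPM at 7 to 15% (adjusted p = 0.905).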

How the data were processed

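Unnormalized UMI counts were deposited as 1 matrix of both libraries. The submitters' processing notes name Cell Ranger, STAR and the mm10 build, with versions not given in the sources used here, and the libraries used the 10x Genomics 3' chemistry, per the labels. Whether depth was made equal between libraries is not given there. The authors also deposited t-SNE coordinates, a score with no unit, used to describe positions. The number ending each barcode was taken as the pool. Libraries held 70813117 and 78861988 UMIs in 6546 and 7117 barcodes, of which 6505 and 7060 passed the limits.

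The members and gene lists were chosen with earlier results of these data known. Counts were summed per cell group and library, without the 7 hormone genes, and tested with edgeR 4.0.16 (quasi-likelihood, robust, TMM, filterByExpr, library as a block because both groups come from the same pool, Benjamini-Hochberg at 0.05) in R 4.3.3. Lower-Prl, high-Prl, Gh and Prl, and somatotrope (Gh over 30%) sums shared 1 fit of 8 columns with 3 residual degrees of freedom. The spread of each gene was drawn toward that of other genes, with a median prior of 20.9 degrees of freedom. DESeq2 1.42.0 was an alternative. CPM are per 1000000 UMIs of TMM-scaled totals outside the hormone genes; bin and marker sums are unscaled by TMM. The named genes with the 12 highest and 12 lowest log2 fold changes were taken from called genes with the same direction in both libraries and at least 50 CPM on the higher side. The given markers, called list members (the largest changes foremost) and a few other listed genes were named at any level, called or not. Scrublet's own threshold called 2 and 6 doublets, too few to use against an expected multiplet rate of 7.6%, so doublets were kept. An alternative left out the 494 and 537 highest scores. Gene positions are from GENCODE vM21. The result of 1 called list member is not reported here.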

Additional observations from a re-analysis of the deposited data

How the results depend on the processing

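Counts of genes called higher and lower in lower-Prl cells (336 and 241) were 222 and 108 with DESeq2. They were 611 and 489 with only the columns compared, and 67 and 36 with cells thinned to 1000 UMIs. With totals that include the hormone genes and no TMM factors they were 6969 and 37. Without marker barcodes they were 147 and 124, and with Col1a2 not counted as a marker (chosen after seeing the data) 211 and 151. They were 101 and 131 with lower-Prl cells at 5 to 10% Prl, and 65 and 30 with high-Prl cells at 15 to 30%. No filter gave 437 lower. Without the replicate block by library they were 171 and 107. For cells at 3 to 7% Prl against 7 to 15%, the 6 higher genes became 23 with DESeq2, 62 (and 3 lower) with no filter, 27 with hormone genes in the totals and no TMM factors, 30 with only the columns compared, 1 at 10% mitochondrial UMIs, 2 without marker barcodes and 0 without the replicate block. The minimum of 2000 UMIs removed no lower-Prl cell. Leaving out a library gives a log2 ratio and no count of called genes.

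With hormone genes in the totals and no TMM factors, log2 fold changes turned positive for Actg1 (0.54), Esr1 (0.52), Agtr1a (0.16), Pou1f1 (0.48), Xbp1 (0.19), Fos (0.53), Six6 (0.37), Cpe (0.27), Scg5 (0.32), Creld2 (0.13), Dnajc3 (0.16), Dnajb9 (0.18), Tmed9 (0.13), Tram1 (0.17), Lman1 (0.23), Junb (0.31) and Malat1 (0.44); the median of all genes shifted by 0.58. Without marker barcodes, and with Col1a2 not counted, values were -0.90 and -0.85 for Igfbp3 and -0.25 and -0.20 for Mt2. Plvap, itself a marker, was at -0.58 and -0.50. Atf3 was -0.07 with Col1a2 counted as a marker. Sytl4 was -2.55 with thinned cells. The cause of the other changes was not tested.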
